A study of Mus musculus with 6 samples.

Results

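The p53 target genes described here are Mdm2, Ccng1, Sesn1, Sesn2, Trp53inp1, Gdf15, Perp, Zmat3, Phlda3 and Btg2, a list of 10 genes that p53 is known to switch on. A probe set was counted to a gene where the platform annotation gave that gene as its only symbol. By this rule 9 of the 10 genes had a probe set, 17 probe sets in all among the 45037 on the array that are not controls, and Gdf15 was not analysed here. The list was drawn up with earlier results of these arrays known.

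The study describes the cells as fibroblasts made from mouse embryonic stem cells. Their RNA was measured on Affymetrix arrays, 3 labelled CD98hc KO and 3 WT, with replicate numbers 1, 3 and 5 under each label. CD98hc is the heavy chain, encoded by Slc3a2, of amino acid transporters at the cell surface, and the comparison asks what its loss does to the transcriptome. The values are log2 expression estimates made by RMA for each probe set, a group of short probes to a transcript, so that a difference of 1 is a 2-fold change. Both genotypes were grown in high glucose DMEM with serum, non-essential amino acids, glutamine and β-mercaptoethanol, an agent without which cells lacking CD98hc do not survive. No promoter, Cre line or number of clones behind the deletion is given in the sources used here, nor whether the arrays of a label came from separate cultures, so p-values reflect only how far these arrays differ among themselves, perhaps for technical reasons.

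Tests are those of limma, a linear model that shares the spread of values across probe sets, and a change passed at an adjusted p under 0.05 over the whole table. The marker genes did not bear out the labels. Slc3a2 had log2 values of 11.65, 11.57 and 11.54 on the KO-labelled arrays, against 10.64, 10.67 and 10.51 on the WT-labelled ones, from a single probe set whose place relative to the deleted part is not known here. All 11 pluripotency markers measured rose under the KO label by limma (0 lower, also at an unadjusted p under 0.05), with list means of 10.58 to 10.98 under the KO label and 4.87 to 5.05 under the WT label. They were led by Zfp42, Pou5f1, Dppa5a and Lin28a, with log2 fold changes of 7.13 to 7.30. Of 16 fibroblast markers, 11 were lower and 1 higher under the KO label, with list means of 5.41 to 5.62 there and 8.24 to 8.83 under the WT label. S100a4, Cd44, Col3a1 and Col6a1 had log2 fold changes between −7.02 and −6.54. Among all genes 22.6% were higher and 19.2% lower under the KO label. In bulk RNA, fewer cells of a type and less RNA per cell cannot be told apart, and genotype and cell state cannot be told apart across these labels. The fibroblast markers averaged under the median of the nonspecific probe sets for 4 of 16 genes under the KO label and 1 under the WT label, and the pluripotency markers for 0 and 4 of 11. Directions are therefore given for KO-labelled against WT-labelled arrays, and the part of cell state in the changes of the p53 targets was not tested.

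The transcription factor p53 is kept scarce in unstressed cells by the ubiquitin ligase MDM2, which is itself made from a p53 target gene, so that the pair forms a feedback loop. When DNA damage, replication stress or nutrient stress stabilises p53, it binds DNA as a tetramer and raises genes that halt the cell cycle, repair DNA, restrain growth signalling or start cell death. In embryonic stem cells p53 is abundant, and its output differs from that in fibroblasts. The p53 binding site is a pair of decamers, or half-sites, next to each other or parted by a short spacer.

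The promoters of these genes were searched for that site because the members did not move together, and the sequences shown are those where a match was found. RefSeq promoter windows (GRCm38.p6, from 250 bases before to 50 bases after a transcription start, both strands covered since the half-site reads the same on either) were at hand for 7 of the 10 members, in 9 windows. No window was at hand for Perp, Trp53inp1 and Zmat3, all higher under the KO label, so the search cannot bear on how the members split. An exact half-site stood in windows of 3 members, Ccng1, Mdm2 and Sesn1, and in 8.36% of all 32851 windows. Sesn2, also higher under the KO label, had 0 exact half-sites and a best site with 4 mismatches. The best site was at Ccng1, where 19 of 20 letters fitted with no spacer, and 1.09% of all windows held a site with at most 1 mismatch. For Ccng1 the 250 bases before the start, chr11:40755287-40755536 on the minus strand, are printed with the site in capitals, from 195 to 176 bases before the start. For Sesn1, at chr10:41887253-41887275 on the plus strand and 186 bases before the downstream of 2 starts, the best pair had 2 mismatches and a spacer of 3 bases. That is a quality found in 10.1% of windows. For Mdm2, at chr10:117710915-117710964 on the minus strand, the half-site is shown with 20 bases on each side. The known p53-responsive promoter of Mdm2 lies inside the gene, in an intron, outside this window. The site of Cdkn1a, the gene of the cell cycle inhibitor p21, is given as the pattern of a full match (0 mismatches, spacer of 12 bases, 0.0731% of windows), at chr17:29090906-29090937 on the plus strand, and belongs to its upstream start. Capitals mark the half-sites. These matches describe letters only and say nothing on whether p53 was bound.
Ccng1: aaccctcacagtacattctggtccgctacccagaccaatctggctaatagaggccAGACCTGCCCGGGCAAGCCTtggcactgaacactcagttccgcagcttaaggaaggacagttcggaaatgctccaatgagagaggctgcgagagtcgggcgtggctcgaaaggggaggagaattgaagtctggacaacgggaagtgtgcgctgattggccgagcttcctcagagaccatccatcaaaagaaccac
Sesn1: GCGCTTGGCCttcAAGCTTGTTT
Mdm2: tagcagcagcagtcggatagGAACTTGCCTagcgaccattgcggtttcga
Cdkn1a: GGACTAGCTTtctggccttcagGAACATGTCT

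The members split into those that were higher on the KO-labelled arrays and those that did not pass, and none was lower. Ccng1, Sesn2, Trp53inp1, Perp and Zmat3 were higher with every probe set, 9 of the 17, whereas Mdm2, Sesn1, Phlda3 and Btg2 did not pass with any of their 8. By limma, at an adjusted p under 0.05, 16.8% of all probe sets were higher and 16.0% lower, and 0 member probe sets were lower at an unadjusted p under 0.05 too. Taken by gene, with the most variable probe set, 5 of 9 members were higher, beside 22.6% of 17097 genes, and the median log2 fold change was 0.81 for the members and 0.02 over all genes. With a change of over 2-fold also required, 5 member probe sets passed, of Sesn2, Trp53inp1 and Perp, beside 6.35% of all probe sets in that direction. By gene these were 3 of 9 members, beside 9.27% of genes. The values of the labels did not overlap for the 9 probe sets that passed, all higher under the KO label, and such a separation was common on these arrays, at 23.7% of all probe sets in that direction and 45.9% in either. As the list was chosen with results known, its counts are a description.

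**Figure D1:**
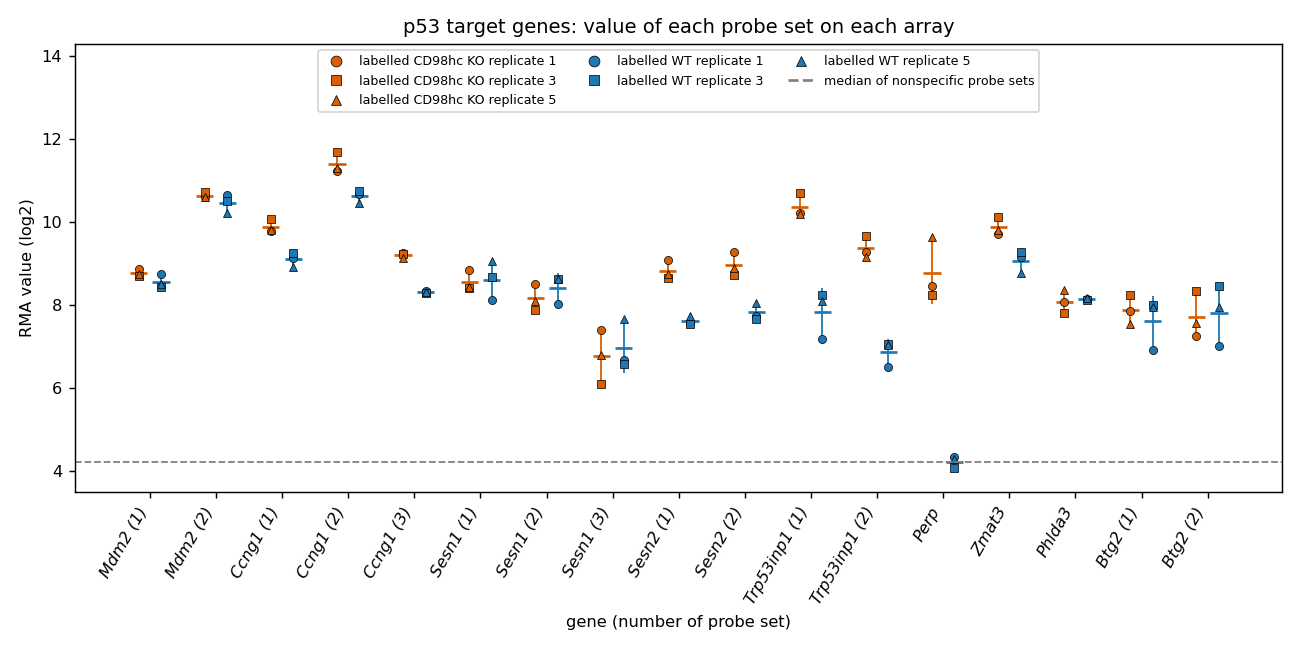
RMA value (log2) of each of the 17 probe sets of the p53 target genes, with a point for each array labelled CD98hc KO (orange, left) or WT (blue, right), marker shape for the replicate number, bars for mean ± SD (n = 3) and the nonspecific median (4.23) dashed. The points of the labels lie apart for Ccng1, Sesn2, Trp53inp1, Perp and Zmat3, and mingle for Mdm2, Sesn1, Phlda3 and Btg2.

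Among the feedback regulators of p53, Ccng1 was higher on the KO-labelled arrays and Mdm2 did not pass. Ccng1 encodes cyclin G1, which recruits the phosphatase PP2A to MDM2 and so restrains p53. Its probe set 1450017_PM_at had values of 9.26, 9.25 and 9.13 on the KO-labelled arrays, against 8.35, 8.30 and 8.32 on the WT-labelled ones, the tightest values of any member. The difference was 0.89 on the log2 scale (SE 0.067 on that scale, limma adjusted p = 0.000169), or 1.85-fold. The other probe sets of Ccng1 gave almost the same change. Probe set 1420827_PM_a_at had 9.80, 10.07 and 9.81 under the KO label and 9.15, 9.25 and 8.93 under the WT label, and 1450016_PM_at had 11.23, 11.71 and 11.30, against 10.69, 10.76 and 10.46. Their log2 fold changes were 0.78 and 0.78 (limma adjusted p = 0.00306 and 0.00822).

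Mdm2, the ubiquitin ligase that marks p53 for degradation, did not pass with either probe set. Probe set 1423605_PM_a_at had 8.87, 8.71 and 8.76 on the KO-labelled arrays and 8.75, 8.44 and 8.53 on the WT-labelled ones. Probe set 1427718_PM_a_at had 10.60, 10.74 and 10.60 under the KO label and 10.66, 10.52 and 10.21 under the WT label. In both the groups overlapped, through WT replicate 1. The log2 fold changes were 0.21 (95% interval −0.04 to 0.45, limma adjusted p = 0.186) and 0.18 (−0.12 to 0.48, adjusted p = 0.353), and the upper ends of the intervals correspond to 1.37-fold and 1.4-fold. The difference between Mdm2 and Ccng1 was not itself tested.

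The sestrins are stress proteins that lower mTORC1 activity by binding GATOR2. Sesn2 was higher on the KO-labelled arrays and Sesn1 did not pass. For Sesn2, probe set 1425139_PM_at had 9.10, 8.65 and 8.75 under the KO label, against 7.56, 7.54 and 7.74 under the WT label. Probe set 1451599_PM_at had 9.29, 8.74 and 8.89, against 7.75, 7.67 and 8.07. Every KO-labelled array lay above every WT-labelled one in both, and KO replicate 1 was the highest of its label. The log2 fold changes were 1.22 (SE 0.132, limma adjusted p = 0.000724) and 1.15 (SE 0.172, adjusted p = 0.00296), about 2.32-fold and 2.21-fold.

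Sesn1 had 3 probe sets, none of which separated the labels. Probe set 1433711_PM_s_at had 8.85, 8.41 and 8.44 under the KO label and 8.13, 8.68 and 9.06 under the WT label, and 1438931_PM_s_at had 8.51, 7.89 and 8.11, against 8.02, 8.63 and 8.63. The suffix s marks probe sets whose probes can bind more than 1 transcript, which may be of different genes. Probe set 1454699_PM_at had 7.42, 6.11 and 6.80 under the KO label and 6.68, 6.58 and 7.67 under the WT label. KO replicate 1 was again the highest of its label in all 3, while WT replicate 1 was the lowest of its label in the first pair. The log2 fold changes ran from −0.26 to −0.05 (limma adjusted p = 0.468 to 0.911), and the widest 95% interval, that of 1454699_PM_at, was −1.20 to 0.79. With the probe sets of each gene averaged, those with the suffix s included, Sesn2 changed by 1.35 more than Sesn1 on the log2 scale. The SD within the label was 0.15 for KO and 0.30 for WT (n = 3 each). An exact permutation test gave a two-sided p = 0.1, the smallest that 3 arrays against 3 allow. The genes were compared with their results known, so this difference is a description.

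**Figure D2:**
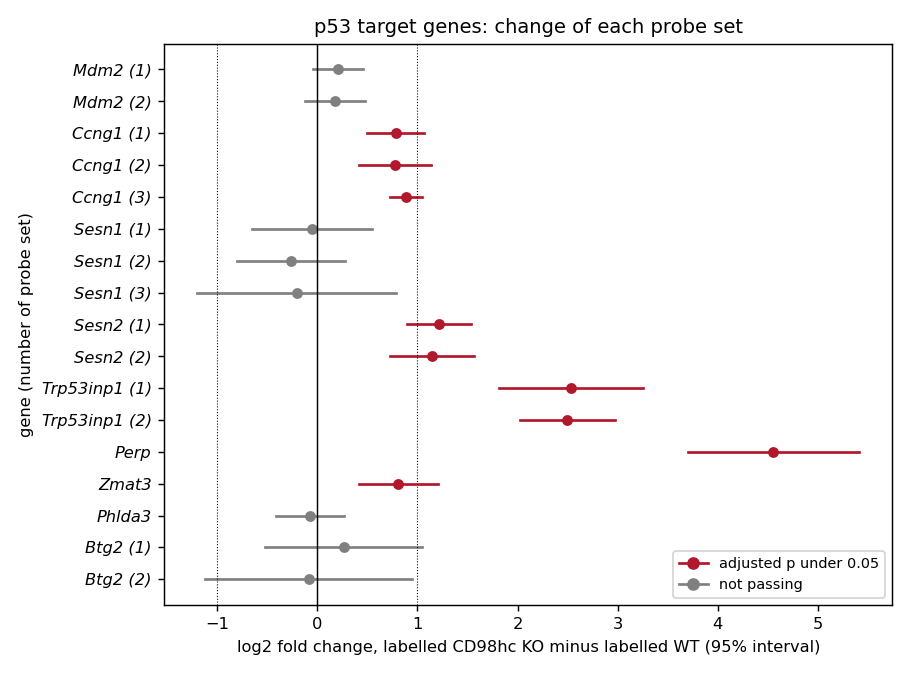
Change in log2 value, KO-labelled minus WT-labelled, for each probe set of the p53 target genes by limma, with its 95% interval, in red where the adjusted p was under 0.05 and dotted lines at a 2-fold change. Perp stands at 4.56 and Trp53inp1 at 2.50 and 2.53, Ccng1, Sesn2 and Zmat3 between 0.78 and 1.22, and the intervals of Mdm2, Sesn1, Phlda3 and Btg2 include 0.

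The largest changes of the list were those of Perp and Trp53inp1. Trp53inp1 encodes a nuclear protein that promotes p53 phosphorylation and, in the cytoplasm, autophagy. Probe set 1416926_PM_at had 10.23, 10.70 and 10.20 on the KO-labelled arrays, against 7.18, 8.24 and 8.10 on the WT-labelled ones. Probe set 1416927_PM_at had 9.29, 9.67 and 9.16, against 6.51, 7.07 and 7.04. Every KO-labelled array was far above every WT-labelled array in both, and WT replicate 1 was the lowest. The log2 fold changes were 2.53 (SE 0.298, limma adjusted p = 0.00105) and 2.50 (SE 0.196, adjusted p = 0.000199), or 5.79-fold and 5.65-fold.

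Perp encodes a tetraspan membrane protein that takes part in p53-dependent death and is also a component of desmosomes, the junctions of epithelial cells. Its only probe set, 1416271_PM_at, had 8.47, 8.25 and 9.65 under the KO label, against 4.34, 4.07 and 4.28 under the WT label. The WT-labelled values stood at the median of the nonspecific probe sets (4.23), whereas KO replicate 5 stood well above the other KO-labelled arrays. The log2 fold change was 4.56 (95% interval 3.70 to 5.41, limma adjusted p = 0.000193), or 23.5-fold. A change measured against a level at the background is a low estimate. Most of a list of epithelial and desmosome markers was higher under the KO label as well, beside 22.6% of all genes. Of 14 measured, 11 were higher and 0 lower under the KO label by limma (0 lower at an unadjusted p under 0.05 as well), with list means of 7.54 to 7.83 there and 5.45 to 5.54 under the WT label. Epcam, Cdh1, Cldn6 and Cldn7 had log2 fold changes of 5.57, 5.23, 4.11 and 3.77. Of the 3 desmosome genes in the list, which were singled out after their values were seen, Dsp (desmoplakin) passed with 3.60, whereas Jup (plakoglobin) had 0.19 and Pkp2 (plakophilin) −0.25 and did not (limma adjusted p = 0.000196, 0.762 and 0.334). The part of these markers in the result for Perp was not tested.

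Of Zmat3, Phlda3 and Btg2, the members left to describe, Zmat3 passed. Zmat3 encodes a zinc finger protein that binds RNA and alters splicing and mRNA stability. Its probe set 1449353_PM_at had 9.72, 10.13 and 9.81 on the KO-labelled arrays, against 9.16, 9.28 and 8.79 on the WT-labelled ones. The labels did not overlap, and the gap between the lowest KO-labelled and the highest WT-labelled array was about the size of the range within a label. The log2 fold change was 0.81 (SE 0.165, limma adjusted p = 0.0102), 1.76-fold.

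Phlda3, which encodes a pleckstrin homology domain protein that competes with AKT for membrane lipids, had 8.07, 7.81 and 8.37 under the KO label and 8.15, 8.13 and 8.18 under the WT label in probe set 1449002_PM_at. The WT-labelled values lay inside the range of the KO-labelled ones. The log2 fold change was −0.07 (95% interval −0.41 to 0.27, limma adjusted p = 0.781).

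Btg2, an antiproliferative gene whose protein recruits the CCR4-NOT deadenylase to mRNA, varied more within a label than between labels. Probe set 1416250_PM_at had 7.87, 8.26 and 7.54 under the KO label and 6.93, 8.00 and 7.96 under the WT label, and 1448272_PM_at had 7.26, 8.36 and 7.58, against 7.03, 8.47 and 7.95. Replicate 3 was the highest and WT replicate 1 the lowest in both probe sets. The log2 fold changes were 0.26 (95% interval −0.53 to 1.05) and −0.09 (−1.12 to 0.94), with limma adjusted p = 0.631 and 0.919.

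The spread within a label differed between members. The median range of 3 arrays over all probe sets was 0.22 under the KO label and 0.23 under the WT label. Among members, the WT-labelled range was 1.06 and 1.44 for the probe sets of Btg2, 0.93, 0.61 and 1.09 for Sesn1 and 1.06 and 0.56 for Trp53inp1, and 0.50 for Zmat3, against 0.04 for Ccng1 probe set 1450017_PM_at and 0.05 for Phlda3. WT replicate 1 was the lowest of its label in 6 of the 17 probe sets, 2 each of Sesn1, Trp53inp1 and Btg2, and was not low throughout, being the highest in 4. WT replicates 3 and 5 were the lowest in 7 and 4, so such a count was not particular to WT replicate 1. On the KO-labelled arrays the widest ranges were those of Perp (1.40) and of Sesn1 probe set 1454699_PM_at (1.31), set by different arrays, replicate 5 for Perp and replicates 1 and 3 for Sesn1.

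**Figure D3:**
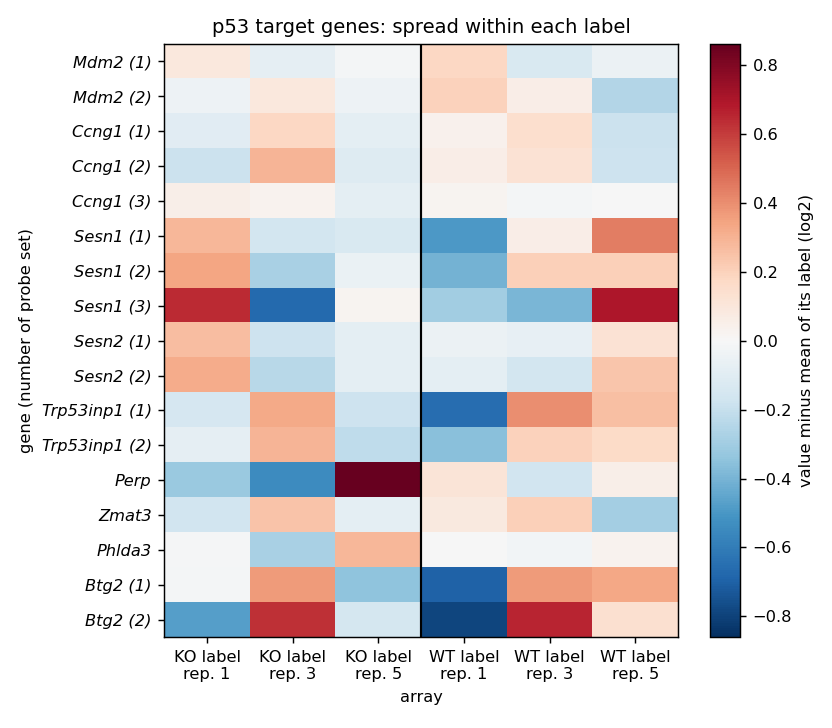
Value of each probe set minus the mean of its label (log2, colour) on each array, KO-labelled arrays on the left and WT-labelled on the right. WT replicate 1 is below its label mean in the probe sets of Trp53inp1, Btg2 and Sesn1 and above it in those of Mdm2, and KO replicate 5 stands out for Perp.

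The hybridisation controls, transcripts added to every sample, divided the arrays by replicate. All 9 of their probe sets were lower on both replicate 3 arrays than on the other 4, by 1.25 on average (log2). KO replicate 3 was the highest of its label in 8 of the 17 member probe sets and the lowest in 8 more. WT replicate 3 was the highest of its label in 7 and the lowest in 7. With 3 arrays a label, any array is often an extreme. KO replicates 1 and 5 were the highest in 7 and 2 and the lowest in 4 and 5. WT replicates 1 and 5 were the highest in 4 and 6 and the lowest in 6 and 4. The share over all probe sets was not counted here, so these counts are a description. Across all probe sets, the deviations of the replicate 3 arrays from their label means correlated by 0.558. Within the 4 arrays of replicates 1 and 5, the log2 fold changes were 0.69 to 0.86 for Ccng1, 1.27 and 1.19 for Sesn2, 2.57 and 2.45 for Trp53inp1, 4.74 for Perp and 0.79 for Zmat3, all with an adjusted p under 0.05 from limma. With 1 replicate 3 array under each label, that pair alone allowed no test.

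The other genes of the p53 pathway moved in both directions. Of 14 measured genes of the p53 family and its regulators, 8 rose and 2 fell under the KO label (median log2 fold change 0.34), and Trp53, which encodes p53 itself, was not analysed here. In gene by gene tests 22.6% of all genes were higher and 19.2% lower. Cdkn2a, whose ARF product sequesters MDM2, had 6.76, 6.20 and 6.23 under the KO label, against 9.57, 9.80 and 10.32 under the WT label, a log2 fold change of −3.50 (SE 0.234, limma adjusted p = 7.2e-05). Its single probe set was not assigned here to either of the products of the locus. Hipk2, a kinase that phosphorylates p53, had 3.78, 4.41 and 4.30, against 7.60, 8.79 and 8.13, a log2 fold change of −4.01 (limma adjusted p = 0.000148), or −2.40 in its brightest probe set. The KO-labelled mean of Hipk2, 4.17, was below the median of the nonspecific probe sets (4.23), so the size of this change is not well measured. Sirt1, a deacetylase of p53, was higher by 1.98 (limma adjusted p = 0.000294) and the checkpoint kinase gene Chek2 by 1.56 (limma adjusted p = 0.000123).

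Of 31 other established p53 targets, 14 rose and 9 fell under the KO label and 8 did not pass. Beside these stood 22.6% of all genes higher and 19.2% lower. The median log2 fold change of these targets was 0.34. Cdkn1a did not pass. It had 9.47, 9.75 and 10.00 under the KO label and 9.43, 9.15 and 9.60 under the WT label, overlapping groups with a log2 fold change of 0.34 (95% interval −0.07 to 0.76, limma adjusted p = 0.166). The most changed target was Pmaip1, which encodes the BH3-only death protein NOXA. It had 9.04, 9.55 and 9.35 under the KO label, against 4.29, 4.30 and 4.26 under the WT label, near the median of the nonspecific probe sets, with a log2 fold change of 5.03 (SE 0.131, limma adjusted p = 2.07e-06). Psrc1, a microtubule protein gene, was higher by 4.01, Trp53i11 by 3.17 and Pml, the scaffold of PML nuclear bodies, by 2.61 (limma adjusted p = 5.4e-06, 8.53e-05 and 0.000109). Of the 9 that fell, Rrm2b and Plk2 changed most, with log2 fold changes of −2.17 and −1.88 (limma adjusted p = 0.000295 and 7.87e-05).

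**Figure D4:**
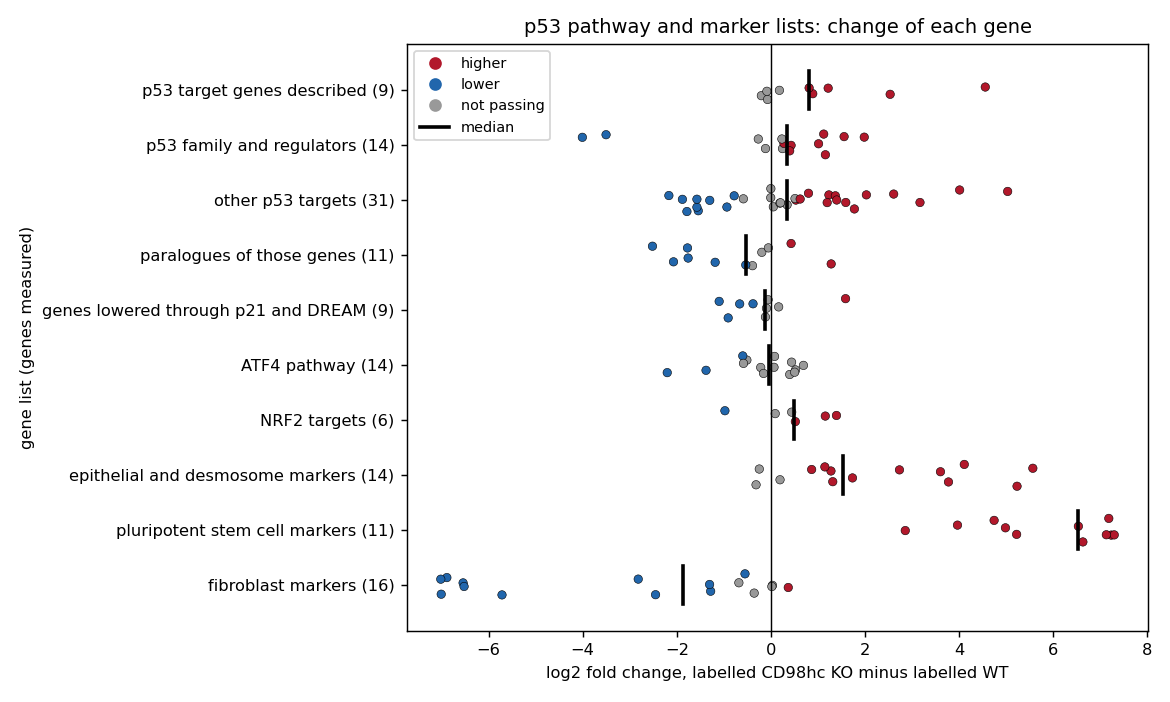
Change in log2 value, KO-labelled minus WT-labelled, for every measured gene of the p53 target list, the p53 pathway lists and the cell type markers, 1 probe set a gene, coloured by its call from limma at an adjusted p under 0.05, with a bar at the list median. The described targets hold no gene that was lower, the other p53 targets hold 14 higher and 9 lower, and the pluripotency markers have a median of 6.53 and the fibroblast markers one of −1.88.

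Of 11 measured paralogues of the members, 2 rose and 6 fell under the KO label, beside 22.6% and 19.2% of all genes, with a median log2 fold change of −0.54. Mdm4, higher by 0.43, was counted both here and among the p53 family and regulators. The number that fell was 3 without KO replicate 1, without KO replicate 5, and on replicates 1 and 5 only, and 4 without WT replicate 3 or WT replicate 5, with 2 higher in each. The paralogues were not tested against the members. Phlda1, a relative of Phlda3, had 7.46, 7.41 and 7.41 under the KO label, against 10.07, 10.19 and 9.57 under the WT label, a log2 fold change of −2.52 (limma adjusted p = 6.26e-05), while Phlda3 did not pass. Tob2 and Btg1, antiproliferative relatives of Btg2, had log2 fold changes of −2.07 and −1.76 (limma adjusted p = 0.000916 and 0.00132), and −1.11 for the brightest probe set of Tob2. Ccng2, the relative of Ccng1, had 6.32, 7.12 and 6.47 under the KO label, against 7.29, 8.83 and 9.11 under the WT label (log2 fold change −1.77, limma adjusted p = 0.0277). This call for Ccng2 was lost, with adjusted p = 0.0737 to 0.0936, without any of KO replicate 1, KO replicate 5, WT replicate 3 or WT replicate 5. It was also lost on replicates 1 and 5 only (limma adjusted p = 0.108).

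Genes that p53 lowers through p21 and the DREAM repressor complex, many of which act in mitosis, changed in both directions. Of 9 measured, 1 rose and 4 fell under the KO label, beside 22.6% and 19.2% of all genes, with a median of −0.12. Foxm1, a transcription factor of mitotic genes, had a log2 fold change of −0.91 and the cyclin gene Ccnb2 one of −0.66 (limma adjusted p = 0.00103 and 0.0396), whereas Mybl2, of the complex that replaces DREAM in cycling cells, was higher by 1.59 (limma adjusted p = 0.0134). Bub1, a spindle checkpoint kinase gene, had −1.10 (limma adjusted p = 0.000416) in its most variable probe set and 0.48 (adjusted p = 0.0392) in its brightest, so its direction was not settled. The call for Ccnb2 was lost without any of KO replicates 3 and 5 and WT replicates 1, 3 and 5 (adjusted p = 0.0567 to 0.109). It was also lost on replicates 1 and 5 only (limma adjusted p = 0.0758).

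Sesn2 is also known as a target of ATF4, the effector of the integrated stress response, and of NRF2, the regulator of antioxidant genes. Of 14 measured genes of the ATF4 pathway, 0 were higher by limma (2 at an unadjusted p under 0.05) and 3 lower. Among all genes 22.6% were higher and 19.2% lower. The median log2 fold change of the ATF4 list was −0.05. The number of ATF4 pathway genes higher depended on the fit. It was 3 with the replicate number as a block, 2 with the hybridisation split as a covariate and 2 by the mean of probe sets. It was 2 without KO replicate 1 and 1 without WT replicate 5. The number lower was 1 without KO replicate 1, WT replicate 1 or WT replicate 5, and 2 without WT replicate 3. Those lower were Nupr1, a stress-induced chromatin protein gene (−2.20, limma adjusted p = 0.0317), and Phgdh and Psat1, enzymes of serine synthesis (−1.38 and −0.60, adjusted p = 0.00456 and 0.0193). The call for Nupr1 was lost without any of KO replicate 1 and WT replicates 1, 3 and 5 (adjusted p = 0.057 to 0.0913), and that for Psat1 without any of KO replicate 1 and WT replicates 1 and 5 (adjusted p = 0.0518 to 0.0641). On replicates 1 and 5 only, the call for Nupr1 was lost as well (limma adjusted p = 0.0693). Of 6 NRF2 targets, 3 were higher and 1 lower, beside the same shares of all genes, with a median of 0.48. Hmox1 (haem oxygenase) had 11.17, 10.78 and 10.64 under the KO label, against 9.37, 9.55 and 9.48 under the WT label, a log2 fold change of 1.39 (limma adjusted p = 0.000444). The quinone reductase gene Nqo1 was higher by 1.16 and Gclm, of glutathione synthesis, by 0.52, while Srxn1, the sulfiredoxin gene, was lower (−0.98), with limma adjusted p = 0.00204, 0.0179 and 0.00183. The call for Gclm was lost without any of KO replicates 1 and 3 and WT replicate 5 (adjusted p = 0.0511 to 0.0565). It was also lost on replicates 1 and 5 only (limma adjusted p = 0.0876). Whether ATF4, NRF2 or p53 set the level of Sesn2 was not tested.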

How the data were processed

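The deposited values are log2 expression estimates of probe sets. The authors computed these log2 values by RMA, normalising arrays together and summarising the probes of each probe set, with affyPLM named for this step and no version given. Scanner files were not used, no detection calls were at hand and no batch correction is stated. Values were used as deposited. Control probe sets (104) were left out, and 28898 of the rest had 1 symbol in the platform annotation, 551 several and 15588 none here.

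KO-labelled minus WT-labelled arrays were fitted in limma 3.58.1 under R 4.3.3 (lmFit, then eBayes), with no covariate because the sources used here do not say which array belonged to which scan batch of the study's model. P-values were adjusted by Benjamini-Hochberg over 45037 probe sets for members and, for lists, over 17097 genes, each by its most variable probe set. Calls needed an adjusted p under 0.05. How few arrays there are limits precision. The fit was tested on simulated data.

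The members and lists were chosen with earlier results of these data known, the lists from textbook knowledge. Named were every member, Slc3a2, Trp53 and Cdkn1a, and up to 4 genes of each list with the largest changes among those that passed. Outside this rule, and with their values seen, Dsp, Jup, Pkp2, Mdm4, Rrm2b and Plk2 were named as well. Alternatives covered the replicate number, the hybridisation controls, single arrays left out, centring and quantile normalisation, dim probe sets, the variance model, the fold limit and the choice of probe set. Python 3.11.15 and matplotlib 3.10.9 drew the figures.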

Additional observations from a re-analysis of the deposited data

How the results depend on the processing

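The 9 member probe sets that passed kept their direction and an adjusted p under 0.05, and the other 8 stayed above it, under each of the 13 alternatives run on them other than the 2-fold limit. Signs changed for members near 0: on replicates 1 and 5 only, Sesn1 probe set 1433711_PM_s_at (0.0507) and Phlda3 (0.0543), and after quantile normalisation the same pair (0.0254 and 0.0189). Single arrays left out gave −0.30 to 0.16 and −0.52 to 0.14 for Sesn1 probe sets 1433711_PM_s_at and 1454699_PM_at, −0.22 to 0.0671 for Phlda3, and −0.0865 to 0.45 and −0.48 to 0.24 for Btg2 probe sets 1416250_PM_at and 1448272_PM_at. The mean of the probe sets gave 0.0885 for Btg2, and the brightest probe set 0.48 for Bub1. With the 2-fold limit, counts fell to 5 member probe sets and 3 member genes higher, 5 regulators and 1 paralogue higher, and 1 gene of the p21 and DREAM list and 0 NRF2 targets lower. The ATF4 pathway had 0 genes higher, against 3 with the replicate block, 2 with the hybridisation controls as covariate, 2 by the mean of probe sets and 0 to 2 without single arrays, which left 1 to 3 lower. Of the paralogues, 3 were lower on replicates 1 and 5 only and 3 to 6 without single arrays, and 1 was higher by the mean of probe sets. By the brightest probe set the p21 and DREAM list had 2 higher and 2 lower. The causes were not tested.

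Same-numbered arrays clearly shared deviations for replicate 3 only. Deviations from the label means of same-numbered arrays correlated by 0.057, 0.558 and 0.152 for replicates 1, 3 and 5. KO replicate 3 correlated by −0.134 and −0.392 with WT replicates 1 and 5. KO replicate 1 correlated best with WT replicate 5, by 0.31. With the replicate block, 9 member probe sets were higher and 0 lower, as without it. Centring moved the median change over all probe sets by 0.0772, with no change in the member counts.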
